A study of Mus musculus with 27 samples.

Results

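The genes described here are 9 members of the feedback and output side of the RAS–MAPK pathway: the ETS factors *Etv4* and *Etv5*, the MAPK phosphatases *Dusp4*, *Dusp5* and *Dusp6*, the RAS–RAF antagonists *Spry2*, *Spry4* and *Spred1*, and the early growth response factor *Egr1*. They were found by symbol in the 5 RNA-Seq tables of the series, which together list 20602 genes. The set was chosen from earlier results of these data, since *Etv4* was among the largest falls after KD of *Irf2bp2*. For this reason the values in *Irf2bp2* KD are given as a description: genes past the limits of the fit are counted there, but no p is given and nothing is read from the members' counts. In that table the members that could be measured, apart from *Dusp5*, lay below the controls, by a log2 of between -1.82 and -0.81 for *Etv5*, *Dusp6*, *Spry4*, *Spred1* and *Egr1*. In the comparisons that were tested, 6 of 7 members fell during MEL differentiation, where 14.8% of all genes tested fell. Among these 6, *Etv4* passed the filter on low counts through the non-induced libraries only, so that its direction was fixed by the filter. In *Cbfa2t3* KD over both hairpins, 1 of 7 (*Dusp6*) fell, where 2.75% of all genes did. In *Gfi1b* KD edgeR called 0 of 7 members and 0 of 11190 genes (784 genes at an unadjusted p under 0.05, and 49 called by DESeq2), and on simulated data that fit recovered 4 of 200 changed genes.

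In the RAS–MAPK pathway, growth factor receptors load RAS with GTP, RAS activates RAF kinases, and RAF activates MEK and then the kinases ERK1 and ERK2. Active ERK turns on immediate-early genes such as *Egr1* and, later, *Etv4* and *Etv5*, whose products activate transcription of growth-related genes. It also turns on its own inhibitors: Sprouty and SPRED proteins act upstream at the level of RAS and RAF, DUSP6 dephosphorylates ERK in the cytoplasm, and DUSP4 and DUSP5 do so in the nucleus. For this reason the RNA levels of these genes are widely used as a readout of ERK activity. In erythroid progenitors the pathway acts downstream of the receptors for stem cell factor (*Kit*) and erythropoietin (*Epor*).

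All libraries came from mouse erythroleukaemia (MEL) cells, a transformed line of erythroid progenitors that matures when induced. The groups were Eto2 WT (2 libraries), Eto2 KD-sh2 (2) and Eto2 KD-sh3 (2), where ETO2 is the corepressor encoded by *Cbfa2t3*, Irf2bp2 WT (2) and Irf2bp2 KD-sh1 (2), Lsd1 WT (1) and Lsd1 KD (2), where LSD1 is the histone demethylase encoded by *Kdm1a*, Gfi1b WT (2) and Gfi1b KD (2), and MEL non-induced (2) and MEL induced (2). Hairpins were delivered by lentivirus and *Gfi1b* was targeted by siRNA, and non-targeting constructs served as controls, so that the libraries labelled WT carry those. Per a legend, the shRNA libraries date from 72 h after transduction and differentiation lasted 96 h, and for siRNA the methods allow 48 or 72 h. The RNA-Seq libraries of *Irf2bp2* KD come from 1 hairpin, sh1. Each table has its own controls. The methods describe replicates as independent, but the labels do not say how the cultures were separated, so a p-value measures the spread between these libraries.

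The shRNA libraries held between 44519414 and 57684583 counted reads and the *Gfi1b* and differentiation libraries between 9929311 and 19623105. The targeted gene was checked in every library. *Cbfa2t3* lay at 400.3 and 427 CPM (CPM are counts scaled to the library size) in the controls, 202 and 244 with sh2 and 123 and 145 with sh3. *Irf2bp2* lay at 116 and 120 CPM in the controls and 92.2 and 94.9 in the KD, a log2 of -0.33 that misses the fold limit of 0.5 used below for other genes. *Kdm1a* lay at 152 in the control and 16.9 and 16.3 in the KD. *Gfi1b* lay at 122 and 145 CPM in the controls, at 76.5 in the library labelled Gfi1b KD replicate 2 and at 216 in the library labelled Gfi1b KD replicate 1, above both controls and against its label. Each of the 8 erythroid markers exceeded 3 counts in at least 1 library of every table, and the myeloid, lymphoid and fibroblast lists each summed to at most 4.21 CPM in a library.

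Levels between genes were compared per length, in RPKM as deposited, over the 9 control libraries. *Egr1* had the highest median, 20.5 RPKM (8.81 to 41.1), and *Spred1* was next with 19.0 RPKM (16.3 to 29.9). The ranges of these 2 genes overlapped. *Dusp5* followed with 9.76 RPKM (4.07 to 10.8) and *Etv5* with 8.68 RPKM (5.50 to 17.7), overlapping each other and lying wholly below *Spred1* only in the case of *Dusp5*. *Spry4* lay at 3.34 RPKM (1.69 to 4.57) and *Dusp6* at 2.28 RPKM (1.87 to 6.36), with ranges that overlapped. *Etv4*, the gene that drew attention to the set, lay at only 0.463 RPKM (0.278 to 1.49), below every control value of *Dusp6*. Its counts never exceeded 68 in a library, against up to 1783 for *Etv5*.

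The remaining members were scarcely measurable in MEL cells. *Dusp4* held at most 12 counts in a library and *Spry2* at most 2, and each is missing a row in 1 table. *Spry2* was tested in no comparison and *Dusp4* only reached the comparison of *Kdm1a*. The other 7 members passed the filter on low counts in all 5 comparisons.

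Control levels of the same gene varied between tables, which were normalized separately. On the CPM scale the highest control of *Egr1* was 4.78-fold above its lowest, from 26.6 CPM in the *Irf2bp2* table to 127 CPM in the single *Kdm1a* control. The same ratio was 5.18 for *Etv4*, 3.34 for *Dusp6*, 3.28 for *Etv5*, 2.65 for *Spry4*, 2.59 for *Dusp5* and 1.98 for *Spred1*. Differences below are therefore taken within a table.

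**Figure D1:**
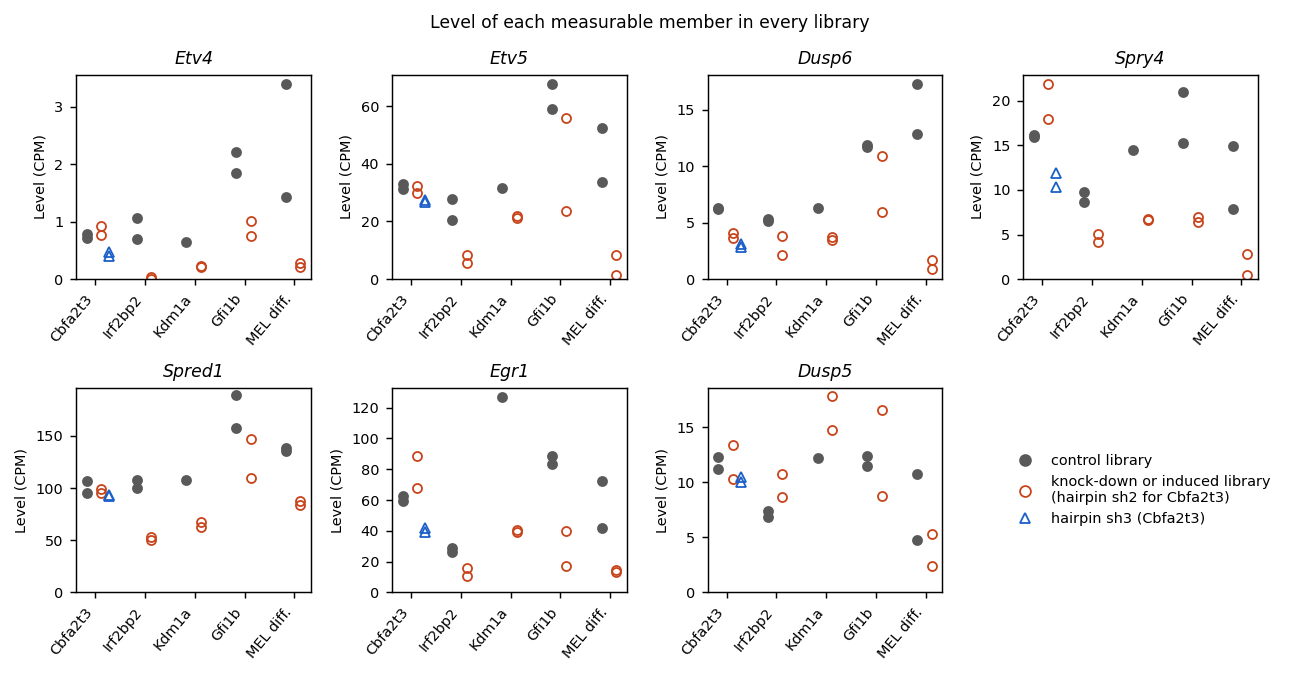
Level of each of the 7 measurable members (CPM, linear axis from 0) in all 21 libraries, by comparison. Filled circles are control libraries, open circles KD or induced libraries and triangles the sh3 libraries. The *Egr1* controls range from 26.6 to 127 CPM between tables.

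The deposited list of sites bound by ETO2 or IRF2BP2 was searched for sites whose single nearest gene, within 1000 kb, was a member. Of its 13229 sites, 1760 are bound by ETO2 only, 2730 are shared and 8739 are bound by IRF2BP2 only. In all, 20 sites were assigned to 7 of the 9 members, comprising 3 ETO2-only, 8 shared and 9 IRF2BP2-only sites. Of the 7 members tested in all comparisons 6 had at least 1 site, against 46.3% of the 9888 genes tested in all comparisons that have a position. *Etv4* and *Spry2* had none. The series holds 1 library of IRF2BP2 ChIP, and the ETO2 reads came from earlier work and were not analysed here, so the fold enrichment of a site carries no error.

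Promoter sites of the 2 ERK phosphatases are shown because *Dusp6* and *Dusp5* differed in direction in *Irf2bp2* KD (below). The *Dusp6* gene (mm9 chr10:98725865-98730122, plus strand) has 1 site, an IRF2BP2-only site at chr10:98725228-98726200 with a fold enrichment of 7.25, close to the median of 7.33 over all sites, and a centre -0.256 kb from the start. The *Dusp5* gene (chr19:53603599-53616921, plus strand) has 6 sites, 4 shared and 2 IRF2BP2-only. The IRF2BP2-only site at chr19:53603226-53604011 covers its start, with a fold enrichment of 3.5, at the 4.96th percentile of all sites. Promoter sequences of RefSeq (build GRCm38.p6) were matched for 5 of the 9 members by symbol, and *Etv4*, *Dusp4*, *Spry4* and *Egr1* are not among them. The 200 bases from 250 to 51 bases before the RefSeq start are printed for both genes, on the strand of the gene, with motif matches in capitals.
Dusp6 (GRCm38.p6 chr10:99262981-99263180): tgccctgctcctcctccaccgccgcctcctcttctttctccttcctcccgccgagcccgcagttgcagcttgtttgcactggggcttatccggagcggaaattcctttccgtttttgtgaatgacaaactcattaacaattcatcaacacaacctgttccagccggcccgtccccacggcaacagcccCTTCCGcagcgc
Dusp5 (GRCm38.p6 chr19:53528895-53529094): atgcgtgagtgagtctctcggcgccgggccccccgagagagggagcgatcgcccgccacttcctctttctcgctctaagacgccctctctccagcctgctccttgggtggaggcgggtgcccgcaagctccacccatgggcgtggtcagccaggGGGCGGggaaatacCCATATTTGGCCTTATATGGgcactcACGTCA

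The motifs searched, on both strands, were the ETS core CGGAAG, the CRE TGACGT, the AP-1 site TGACTCA, the E-box CAGCTG, the GC box GGGCGG, the CArG box, which is bound by serum response factor, and the GATA site, spelled AGATAA or AGATAG. Versions that begin with T, spelled TGATAA or TGATAG, were searched as well. The *Dusp6* window holds 1 match, an ETS core on the opposite strand at -62, a motif found in 9.25% of the 32851 promoter windows of the same length. The *Dusp5* window holds a pair of abutting CArG boxes at -82 and -72, each a match on both strands, and 1.16% of all windows hold a CArG box. It also holds a GC box at -96, as do 24.6% of all windows, and a CRE on the opposite strand at -56, as do 4.16%. The exact sequence of each printed window occurs once on its chromosome in mm9 and lies inside the IRF2BP2-only site of its gene. A match describes letters and is no measurement of binding.

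The distal sites of the members are represented by the ETO2-bound site of *Etv5*, *Dusp5* and *Spred1* with the highest fold enrichment. They are shown because *Etv5* and *Spred1* moved with *Etv4* in *Irf2bp2* KD and *Dusp5* did not. The list combines both antibodies, and the antibody that gave the fold enrichment of a shared site was not identified. Each is given as the 200 bases around the site centre, on the plus strand of mm9, with matches to the same motifs in capitals.
Etv5 intron, ETO2-only (chr16:22410182-22410381): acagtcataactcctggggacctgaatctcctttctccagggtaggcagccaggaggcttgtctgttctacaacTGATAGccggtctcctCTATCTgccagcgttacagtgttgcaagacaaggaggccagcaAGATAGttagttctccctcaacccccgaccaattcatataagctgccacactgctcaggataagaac
Dusp5 upstream, shared (chr19:53595998-53596197): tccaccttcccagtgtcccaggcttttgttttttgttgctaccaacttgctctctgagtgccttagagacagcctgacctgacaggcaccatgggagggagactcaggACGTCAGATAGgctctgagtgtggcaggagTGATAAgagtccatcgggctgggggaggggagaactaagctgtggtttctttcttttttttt
Spred1 upstream, shared (chr2:116874113-116874312): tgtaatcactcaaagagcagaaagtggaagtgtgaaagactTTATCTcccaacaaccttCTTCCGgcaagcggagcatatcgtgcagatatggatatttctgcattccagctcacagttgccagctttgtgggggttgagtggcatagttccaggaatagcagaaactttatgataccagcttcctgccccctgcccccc

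The *Etv5* gene (mm9 chr16:22381382-22439792, minus strand) has this site only, an ETO2-only site in its intron, 29.5 kb downstream of the start, with a fold enrichment of 8.75. Its window holds 3 GATA sites. The *Dusp5* site lies -7.50 kb from the start, with a fold enrichment of 8.58, the highest of the 6, and its window holds 2 GATA sites and a CRE that shares a base with one of them. The *Spred1* gene (chr2:116947110-117008015, plus strand) has a shared site -72.9 kb from its start, with a fold enrichment of 6.54, and an IRF2BP2-only site in its intron 1.81 kb downstream, with 3.91. The window of the shared site holds 1 GATA site and 1 ETS core. A GATA site is held by 88.6% of the ETO2-only windows, 90.3% of the shared and 44.4% of the IRF2BP2-only windows of this length, and an ETS core by 4.32, 7.47 and 13.6%. Of the motifs with no match in these windows, the AP-1 site is held by 11.7%, the GC box by 13.7% and the CArG box by 0.922% of all 13229 windows, and the E-box by 14.6, 26.7 and 31.0% of the same 3 classes.

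*Egr1* has 6 sites centred within 6.54 kb upstream of its start, of which 5 are IRF2BP2-only and 1 is shared. Some of them abut, so these listed sites are not all separate regions. The site at the promoter covers the start and is centred -0.034 kb from it. It is bound by IRF2BP2 only and has a fold enrichment of 7.11. *Spry4* has 1 site, shared, 88.2 kb downstream of its start, with a fold enrichment of 5.80. *Dusp4* (chr8:35870351-35882948), which is scarcely expressed, has 2 ETO2-only sites with fold enrichments of 10.3 and 10.5 and 1 shared site. *Etv4* (chr11:101631056-101646685, minus strand) has no site nearer than 52.5 kb, and that IRF2BP2-only site was assigned to *Dhx8*. The closest listed site to *Spry2* lies 267 kb away. An exon of *Egr1* overlaps the annotated gene *Gm17507*, and since no source states that counting used strand, their reads cannot be told apart. No exon of another member overlaps another gene.

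**Figure D2:**
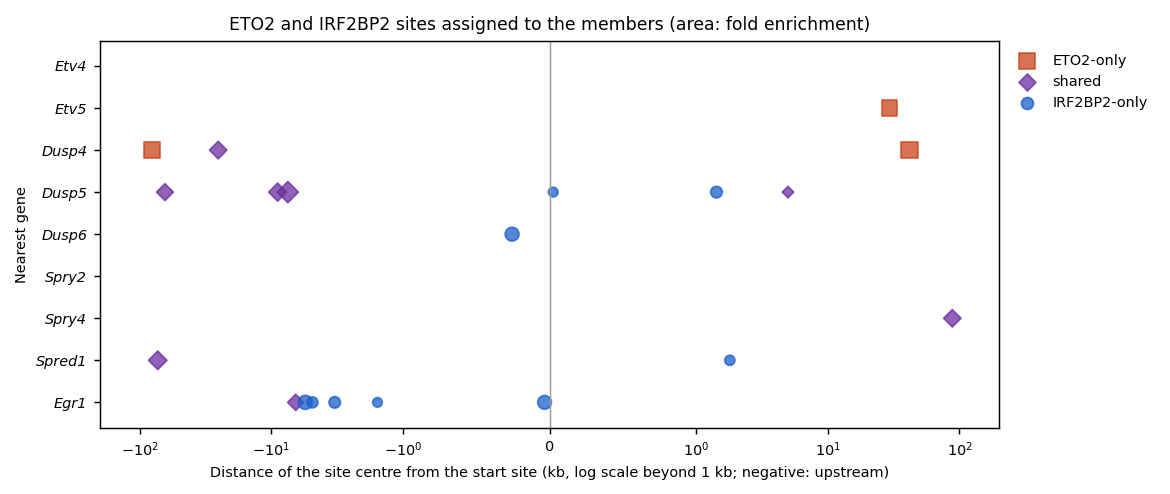
Distance of each of the 20 assigned sites from the start site of the member (kb, log scale beyond 1 kb, negative values upstream), coloured by class, with symbol area in proportion to fold enrichment. *Dusp6*, *Dusp5* and *Egr1* have an IRF2BP2-only site at the start, and *Etv4* and *Spry2* have no site.

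The first comparison asks how the members stand when IRF2BP2, a corepressor partner of ETO2, is depleted. *Etv4* held 53 and 35 counts in the control libraries and 2 and 0 in the KD libraries. Both KD libraries were thus under the floor of 3 counts, while the controls were far above it.

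Its relative *Etv5* lay at 27.9 and 20.6 CPM in the controls and 8.25 and 5.53 CPM in the KD libraries, a log2 difference of -1.82 ± 0.16 (SE). Among the phosphatases, *Dusp6* lay at 5.17 and 5.32 CPM in the controls and 3.85 and 2.17 CPM in the KD, a log2 difference of -0.81 ± 0.21. *Dusp5* went the other way, from 6.89 and 7.43 CPM to 10.7 and 8.64 CPM, a log2 difference of 0.43 ± 0.14. Its KD libraries both lay above its controls, the only measurable member of which this holds. The distance of both phosphatases from the controls depended on the KD library: without Irf2bp2 KD-sh1 replicate 2 the log2 difference of *Dusp6* was -0.44 and that of *Dusp5* was 0.58.

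Of the antagonists upstream in the pathway, *Spry4* lay at 9.74 and 8.61 CPM in the controls and 5.05 and 4.20 CPM in the KD. *Spred1* lay at 108 and 99.7 CPM in the controls and 52.8 and 50.2 CPM in the KD. The log2 differences were -0.99 ± 0.15 and -1.01 ± 0.08, and the KD libraries of *Spred1* differed from each other by less than its controls did. *Egr1* lay at 28.9 and 26.6 CPM in the controls and 15.8 and 10.96 CPM in the KD, a log2 difference of -1.06 ± 0.13. The groups did not overlap for any of these genes.

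A gene was called where its adjusted p was at most 0.05 and its log2 fold change at least 0.5 in size. By these limits 6 of the 7 members would count as lowered and 0 as raised. Of all 12329 genes tested here, 22.5% were called in either direction and 12.5% were lowered. Since the members were chosen on this table, nothing is read from their count. The median log2 difference of the 7 members was -1.01, which is a description for the same reason. *Etv4* also passed the filter on low counts through its controls only, so that its direction was fixed by the filter. The summed erythroid markers were also higher in the KD (3492 to 3685 CPM against 1901 to 2035 CPM), as were the megakaryocyte markers (802 to 842 CPM against 373 to 428 CPM). Their part in these differences was not tested. In bulk RNA, fewer cells of a kind and less RNA per cell cannot be told apart, here and in the comparisons that follow.

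KD of *Cbfa2t3* asks whether loss of ETO2 itself moves the same genes. Its libraries are separate from those of *Irf2bp2* KD, but earlier results of this table were known when the members were chosen. Over both hairpins, only *Dusp6* fell. It lay at 6.34 and 6.24 CPM in the controls, 3.66 and 4.12 CPM with sh2 and 3.12 and 2.87 CPM with sh3. All 4 KD libraries lay below both controls, and the log2 fold change was -0.87 ± 0.15 (adjusted p = 0.00736). This is 1 of 7 members lowered and 0 raised, where 5.74% of the 12537 genes tested were called and 2.75% were lowered. Leaving out either control library ended the call, with adjusted p of 0.0960 without replicate 1 and 0.0793 without replicate 2, while the log2 fold change stayed at -0.86 and -0.88.

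*Etv5*, *Dusp5* and *Spred1* showed small differences and were not called. *Etv5* lay at 33.0 and 31.4 CPM in the controls and between 26.6 and 32.5 CPM in the 4 KD libraries (log2 -0.15 ± 0.09, adjusted p = 0.359). *Dusp5* lay at 11.2 and 12.3 CPM in the controls and between 9.98 and 13.3 CPM in the KD (log2 -0.09 ± 0.13, adjusted p = 0.725). *Spred1* lay at 107 and 95.6 CPM in the controls and between 92.5 and 99.4 CPM in the KD (log2 -0.09 ± 0.07, adjusted p = 0.434). The KD libraries of each gene overlapped its controls or lay close to them. Erythroid markers summed to 2794 to 3161 CPM in the KD libraries against 2278 to 2389 CPM in the controls, and megakaryocyte markers to 485 to 597 CPM against 407 to 420.4 CPM. Neither overlapped. Myeloid markers summed to 1.32 to 1.59 CPM in the KD against 1.92 to 2.01 CPM in the controls, with 2 of 6 genes at or under 3 counts. The lymphoid and fibroblast sums overlapped their controls. The part of these marker lists in the values of the members was not tested.

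For *Egr1*, *Spry4* and *Etv4*, the average over the hairpins was a log2 of -0.05, -0.05 and -0.24 (adjusted p of 0.946, 0.935 and 0.714), but the hairpins differed. *Egr1* lay at 62.7 and 59.7 CPM in the controls, 67.9 and 88.6 CPM with sh2 and 39.2 and 41.6 CPM with sh3. *Spry4* lay at 16.2 and 15.9 CPM in the controls, 17.9 and 21.9 CPM with sh2 and 10.3 and 11.9 CPM with sh3. For both genes the sh2 libraries lay above and the sh3 libraries below the controls, with no overlap. *Etv4* held 40 and 41 counts in the controls, 46 and 39 with sh2 and 23 and 23 with sh3, so that only sh3 stood apart from the controls.

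Fitted as a difference between hairpins, sh3 lay below sh2 by a log2 of -0.95 ± 0.10 for *Egr1* (adjusted p = 0.000211), -0.84 ± 0.11 for *Spry4* (adjusted p = 0.000674) and -0.98 ± 0.26 for *Etv4* (adjusted p = 0.0334). These 3 of 7 members were called, where 3.71% of all genes tested were. The call of *Etv4* was lost on leaving out any library but Eto2 KD-sh2 replicate 2, with adjusted p between 0.0611 and 0.200. *Dusp6* (log2 -0.38 ± 0.13, adjusted p = 0.0815), *Etv5* (-0.21 ± 0.07, 0.0900), *Dusp5* (-0.21 ± 0.12, 0.291) and *Spred1* (-0.07 ± 0.06, 0.556) were not called. Against the controls, sh3 alone lowered 4 members, *Dusp6*, *Etv4* (log2 -0.80, adjusted p = 0.0458), *Spry4* (-0.53, 0.000805) and *Egr1* (-0.60, 1.01e-05), where 4.8% of all genes fell in that fit. Of the members, sh2 alone lowered *Dusp6*, where 3.78% of all genes fell. In that fit *Egr1* (log2 0.35, adjusted p = 0.0315) and *Spry4* (0.31, 0.0495) passed the adjusted p upwards but stayed under the fold limit. *Cbfa2t3* itself was lower with sh3 than with sh2 in both libraries, by the values given above. Whether the depth of the knockdown or another property of the hairpins goes with these differences cannot be told apart.

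**Figure D3:**
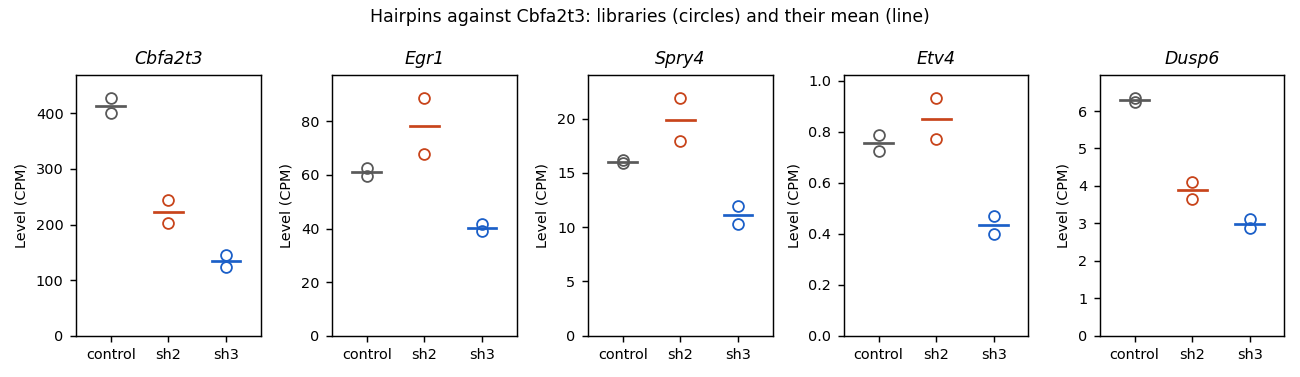
Levels (CPM, axis from 0) of *Cbfa2t3* and 4 members in the control, sh2 and sh3 libraries, with circles for the 2 libraries of a group and a line for their mean. *Dusp6* is below the controls with both hairpins, and *Egr1*, *Spry4* and *Etv4* are below them with sh3 only.

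KD of *Kdm1a* asks the same for LSD1, which works with GFI1B and other corepressors. With 1 control library the spread of the controls is not measured. The values are therefore described, and a member was counted where each KD library stood at least 0.5 (log2) away from the control on the same side. *Egr1* lay at 127 CPM in the control and 39.1 and 40.8 CPM in the KD, a mean log2 difference of -1.67. This control had the highest *Egr1* CPM of the 9 control libraries, which come from separately normalized tables. *Etv4* held 32 counts in the control and 12 and 10 in the KD (log2 -1.42), and *Spry4* lay at 14.5 CPM against 6.71 and 6.65 CPM (log2 -1.11). The KD libraries were close to each other for these 3 genes.

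Smaller differences were seen for *Dusp6*, at 6.30 CPM in the control and 3.76 and 3.48 CPM in the KD (log2 -0.79). *Spred1* lay at 107 CPM against 62.6 and 67.3 CPM (log2 -0.73), and *Etv5* at 31.6 CPM against 21.3 and 22.1 CPM (log2 -0.54), just past the limit. *Dusp5* again lay above its control, at 12.2 CPM against 17.8 and 14.7 CPM (log2 0.40), and 1 of its KD libraries did not reach the limit. *Dusp4* held 2 counts in the control and 12 and 8 in the KD. It passed the filter on low counts through the KD libraries, so that a difference upwards was fixed by the filter and is not counted. Of the other 7 members, 6 were past the limit downwards and 0 upwards, where 22.9% of 12628 genes were past it in either direction, 9.8% downwards and 13.1% upwards. The median over these 7 was -0.79, against 0.00 over all genes. Erythroid markers summed to 2249 CPM in the control and 1854 and 1880 CPM in the KD. The myeloid markers summed to 1.47 CPM in the control and 3.19 to 3.26 CPM in the KD, the lymphoid markers to 0.920 and 1.92 to 2.03 CPM, and the fibroblast markers to 0.429 and 0.853 to 1.07 CPM. In these 3 lists 2 of 6, 2 of 5 and 3 of 4 genes were at or under the floor of 3 counts or not listed. The megakaryocyte markers summed to 342 CPM in the control and 287 to 350 CPM in the KD, on both sides of it. The part of these marker lists in the differences was not tested.

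For *Gfi1b* KD, the transcription factor that recruits LSD1, no member was called by edgeR, and 0% of the 11190 genes tested were called in either direction, 0% lowered. At an unadjusted p under 0.05 there were 784 genes, among them 2 members, and DESeq2 called 49 genes, among them 1 member. With no filter on low counts edgeR called *Egr1* and *Spry4* lower, where 2.41% of 17067 genes were called and 0.135% lowered. On simulated data of this depth and spread the filtered test recovered 4 of 200 genes changed by a log2 of 1. *Egr1* lay at 88.4 and 83.2 CPM in the controls, at 17.2 CPM in the library labelled Gfi1b KD replicate 1 and at 39.8 CPM in the library labelled Gfi1b KD replicate 2 (log2 -1.60 ± 0.39, adjusted p = 0.690). *Spry4* lay at 21.0 and 15.2 CPM in the controls and at 6.98 and 6.37 CPM in those labelled KD (log2 -1.44 ± 0.34, adjusted p = 0.690). For both genes the libraries labelled KD lay below both controls.

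*Etv4* held 27 and 22 counts in the controls, against 14 and 12 in the libraries labelled KD (log2 -1.20 ± 0.72, adjusted p = 0.724). For *Etv5* the libraries labelled KD were far apart, with 23.6 CPM in replicate 1 and 56.0 CPM in replicate 2 against 67.7 and 59.0 CPM in the controls. *Dusp6* showed the same, with 5.91 and 10.9 CPM against 11.7 and 11.9 CPM, and *Spred1* with 110 and 147 CPM against 189 and 157 CPM. *Dusp5* lay on both sides of its controls (11.4 and 12.4 CPM), at 8.74 CPM in the library labelled KD replicate 1 and at 16.6 CPM in that labelled KD replicate 2. In 6 of 7 members both libraries labelled KD lay below both controls, as they did for 19.6% of all genes tested, with a median log2 fold change of -0.67, against 0.02 for all genes.

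Without the library labelled Gfi1b KD replicate 1, the one with high *Gfi1b*, edgeR called *Egr1* (log2 -1.11, adjusted p = 5.34e-06) and *Spry4* (-1.51, 0.000943) lower in the lone remaining library, whose spread is taken to be that of the controls, where 1.23% of all genes were lowered and 3.48% were called. The other members were not called and most lay closer to the controls than with both libraries, with log2 differences of -0.18 for *Etv5*, -0.12 for *Dusp6*, -0.24 for *Spred1*, -0.99 for *Etv4* and 0.47 for *Dusp5*. Without the library labelled Gfi1b KD replicate 2, it called 5 members lower: *Egr1* (-2.34, 2.16e-14), *Etv5* (-1.44, 3.38e-07), *Spry4* (-1.40, 0.000536), *Spred1* (-0.68, 0.000800) and *Dusp6* (-1.01, 0.0345). In that fit 12% of all genes were lowered and 26.7% were called. *Egr1* and *Spry4* were called in either case. The summed megakaryocyte markers ranged from 179 to 905 CPM in the libraries labelled KD against 227 to 292 CPM in the controls, and the erythroid markers from 1898 to 3140 CPM against 1771 to 1986 CPM. Their part in these values was not tested.

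MEL differentiation asks where the members go when the cells mature. *Dusp6* fell from 17.3 and 12.9 CPM in the non-induced libraries to 1.73 and 0.922 CPM in the induced ones. The fall was 11.3-fold, with a log2 fold change of -3.50 ± 0.47 (adjusted p = 0.000224). *Etv5* fell from 52.5 and 33.8 CPM to 8.23 and 1.42 CPM (log2 -3.16 ± 0.55, adjusted p = 0.00130). With 1 library left out, a group holds a lone library whose spread is taken to be that of the other group. In each such fit both genes were called, but the size for *Etv5* moved to -4.93 without MEL induced replicate 1 and to -2.38 without MEL induced replicate 2. The SEs of *Dusp6*, *Etv5* and *Etv4* (below) overlap, so the order of their falls is not settled.

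*Egr1* fell from 72.1 and 41.5 CPM to 14.8 and 13.5 CPM (log2 -2.01 ± 0.32, adjusted p = 0.000653) and was called in each of those fits as well. *Spry4* fell from 14.9 and 7.91 CPM to 2.84 and 0.496 CPM (log2 -2.77 ± 0.63, adjusted p = 0.00613), with a log2 of -4.52 without MEL induced replicate 1 and -2.00 without MEL induced replicate 2. *Etv4* fell from 68 and 17 counts to 3 and 4 counts (log2 -3.27 ± 0.83, adjusted p = 0.0108). It passed the filter on low counts through the non-induced libraries only. A fall of *Etv4* was thus fixed by the filter, and its p is a description. The induced libraries of these genes lay below both non-induced ones, and those of *Etv4* were close to the floor of 3 counts.

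*Spred1* fell from 139 and 136 CPM to 87.1 and 83.6 CPM (log2 -0.68 ± 0.23, adjusted p = 0.0416). *Dusp5* did not pass the test, with 10.7 and 4.79 CPM before and 5.32 and 2.41 CPM after induction (log2 -1.01 ± 0.52, adjusted p = 0.167). Its groups overlapped, and it was called without MEL induced replicate 1 (log2 -1.70, adjusted p = 0.0183). In all, 6 of 7 members fell and 0 rose, where 27.2% of the 11713 genes tested were called and 14.8% fell. Apart from *Etv4*, whose direction was fixed by the filter, these were *Dusp6*, *Etv5*, *Egr1*, *Spry4* and *Spred1*. The median log2 fold change of all 7, with *Etv4*, was -2.77, against -0.02 for all genes.

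Some of these calls were lost when 1 library was left out, with the direction kept. Non-induced replicate 1 lay above replicate 2 for all 7 members. Without it 3 members were called, where 7.25% of all genes fell, and the lost ones were *Etv4* (log2 -2.51, adjusted p = 0.255), *Spry4* (-2.25, 0.113) and *Spred1* (-0.68, 0.118). Without MEL non-induced replicate 2, 4 members were called, where 6.52% of all genes fell, and the lost ones were *Etv4* (-3.75, 0.0532) and *Spred1* (-0.70, 0.110). *Spred1* was also lost without induced replicate 1 (-0.72, 0.108) or 2 (-0.64, 0.219). The erythroid markers summed to 2377 and 2416 CPM before and 3509 and 4028 CPM after induction, and the megakaryocyte markers to between 389.7 and 529 CPM before and between 1187 and 1322 CPM after. The low sums of the other lists fell without overlap. Myeloid markers went from 2.86 to 3.84 CPM before to 1.42 to 1.80 CPM after, and lymphoid markers from 2.89 to 4.21 CPM to 0.496 to 1.73 CPM. Fibroblast markers went from 0.421 to 0.847 CPM before to 0.0691 to 0.213 CPM after. The part of these marker lists in the falls was not tested.

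**Figure D4:**
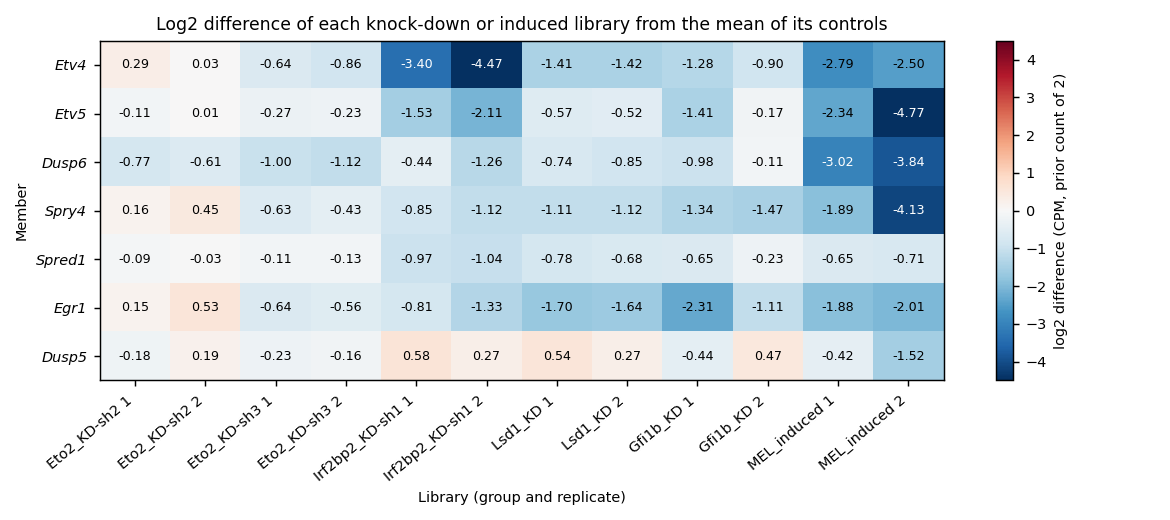
Log2 difference of each KD or induced library from the mean of the controls of its table, for the 7 measurable members (log2 CPM after TMM scaling, prior count 2). *Dusp5* is the only member above its controls in both *Irf2bp2* KD libraries and both *Kdm1a* KD libraries, and *Spred1* stays between -0.65 and -0.71 in the induced libraries.

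Genes whose pattern was most like that of *Etv4* were named by Pearson's r of the log2 differences over the 12 KD and induced libraries, among 11053 genes tested in all comparisons. They were *Zfp354c* (r = 0.94), *Dzip3* (0.93), *Marcksl1* (0.93), *Pgm1* (0.93) and *Pecr* (0.91). Of the members, *Spred1* ranked 22nd with 0.88, followed by *Etv5* (0.66), *Egr1* (0.53), *Spry4* (0.49) and *Dusp6* (0.37), and *Dusp5* had 0.00. The libraries of a table share their controls, and the 2 *Irf2bp2* KD libraries are extreme for *Etv4*, so r is a description only.

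The rest of the pathway was followed with 6 lists that hold 106 other genes: receptors, adaptors and RAS switch proteins, the kinase cascade, other feedback inhibitors, immediate-early and ERK target genes, and other ETS factors. In *Cbfa2t3* KD, 5 of 81 tested genes rose and 4 fell, or 11.1%, against 5.74% of all genes. The 4 that fell include the RAS GTPase-activating protein gene *Rasa3* (log2 -0.76 ± 0.08, adjusted p = 0.000538), the adaptor *Gab2* (-0.54 ± 0.07, 0.00210) and *Kit* (-0.82 ± 0.21, 0.0415). The fourth was the ETS factor *Elf1* (-0.52 ± 0.08, 0.00543). In the list of other feedback inhibitors 4 of 11 rose, 0 fell and 7 were not called. Those that rose include *Dusp8* (1.58 ± 0.17, 0.000716), *Dusp2* (0.80 ± 0.13, 0.00476) and *Dusp1* (0.63 ± 0.17, 0.0475). This list also holds phosphatases of the stress kinases p38 and JNK, such as *Dusp8*. *Epor* rose as well (0.60 ± 0.07, 0.00109). The count was 5 without Eto2 WT replicate 1, where 2.19% of all genes were called, and 4 without Eto2 WT replicate 2, where 2.82% were. With sh3 alone it was 17, where 9.19% of all genes were called.

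In *Irf2bp2* KD, given as a description, 12 of 80 genes were past the limits upwards and 12 downwards, or 30.0%, against 22.5% of all genes. The lower ones include *Gab2* (log2 -1.63 ± 0.10), *Rasa3* (-1.24 ± 0.08), the RAS exchange factor *Sos1* (-0.90 ± 0.09), *Kit* (-0.98 ± 0.20), the ribosomal S6 kinase *Rps6ka3* (-0.90 ± 0.08) and the MEK gene *Map2k1* (-0.50 ± 0.08). Among the receptors, *Pdgfrb*, the receptor of platelet-derived growth factor, was lower as well (-1.55 ± 0.19) and *Epor* was higher (0.99 ± 0.09). Of the other ETS factors, *Elf1* (-0.73 ± 0.09) and *Elk3* (-0.59 ± 0.10), an ERK-regulated partner of serum response factor, were lower and *Spi1*, which encodes PU.1, was higher (0.57 ± 0.08). Other feedback inhibitors stood on both sides, with 4 of 11 past the limits upwards, 2 downwards and 5 within them, and a median of -0.09. *Dusp8* was higher by 2.32 ± 0.20, *Dusp1* by 1.89 ± 0.13 and *Dusp10* by 1.37 ± 0.11. These phosphatases act on the stress kinases p38 and JNK. The lower ones, named after their values were seen, were *Dusp16* (-1.18 ± 0.10), another phosphatase of the stress kinases, and the Sprouty gene *Spry1* (-1.21 ± 0.22). Among immediate-early and ERK target genes none was past the limit downwards and 3 of 14 were past it upwards, *Junb* (1.22 ± 0.08), *Phlda1* (1.08 ± 0.11) and *Ier5* (1.01 ± 0.09), while the member *Egr1* was lower.

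In *Kdm1a* KD, 12 of 82 genes were past the limit upwards and 10 downwards, or 26.8%, against 22.9% of all genes, with 5 of 13 other ETS factors upwards, among them *Elf4* (log2 1.08), *Elk1* (0.75) and *Fli1* (0.72). Among the immediate-early and ERK target genes *Epha2* (-1.81) and *Fos* (-1.03) were lower, as *Egr1* was, and *Ier3* (0.87) was higher. Of the RAS-family GTPases, *Rras* was higher (2.08) and *Mras* (-0.89) and *Hras* (-0.87) were lower. *Mapk3*, which encodes ERK1, was higher by 0.73 and *Pdgfrb* by 1.89. The feedback inhibitors *Errfi1* (-0.71), which acts on the EGF receptor, and *Dusp14* (-0.60) were lower. Also counted upwards is the kinase gene *Map3k8*, with 0.0613 CPM in the control and a mean of 0.590 CPM in the KD, which passed the filter through the KD libraries, so that its direction was fixed by the filter. In *Gfi1b* KD 0 of 76 genes were called by edgeR, with 3 at an unadjusted p under 0.05 and 0 called by DESeq2. Pathway genes called numbered 26 without the library labelled Gfi1b KD replicate 2, in the fit that called 26.7% of all genes, and 1 without that labelled Gfi1b KD replicate 1, where 3.48% were. With no filter 1 was called, where 2.41% of all genes were.

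In MEL differentiation 12 of 81 genes rose and 17 fell, or 35.8%, against 27.2% of all genes. *Kit* fell by 4.28 ± 0.78 on the log2 scale (adjusted p = 0.00175). Its mean went from 12.3 CPM to 0.622 CPM, with an SD of 0.880 in the induced libraries. That SD is larger than the mean, so the size of the fall is not settled. The member relative *Spred2*, an inhibitor of RAF activation, fell by 2.88 ± 0.42 (adjusted p = 0.000357). *Rasa3* (-2.29 ± 0.31, 0.000252), the RAS and RAP exchange factors *Rasgrp4* (-2.30 ± 0.43, 0.00199) and *Rasgrp2* (-2.01 ± 0.30, 0.000479) and *Myc* (-1.60 ± 0.34, 0.00395) fell. So did the receptor genes *Fgfr1* (-2.34 ± 0.62, 0.0143) and *Pdgfrb* (-1.67 ± 0.44, 0.0143), the AP-1 gene *Fosl2* (-1.51 ± 0.50, 0.0370) and the ribosomal S6 kinase *Rps6ka1* (-1.77 ± 0.36, 0.00309). The induced libraries of *Fgfr1* were also far apart, with a mean of 1.42 CPM and an SD of 1.31. Of the other ETS factors, *Spi1* (-1.66 ± 0.38, 0.00635) and the repressor *Etv6* (-0.93 ± 0.25, 0.0142) fell. *Dusp8* (1.42 ± 0.39, 0.0173), *Dusp10* (1.05 ± 0.35, 0.0401), *Ier5* (1.55 ± 0.26, 0.000959) and *Braf* (1.27 ± 0.28, 0.00528) rose, and so did the kinase gene *Rps6ka5* (0.92 ± 0.32, 0.0462). *Dusp8* was past the limits upwards in this comparison, in *Cbfa2t3* KD and, as a description, in *Irf2bp2* and *Kdm1a* KD (log2 0.89). The count of called pathway genes was 18 without MEL induced replicate 2, where 14.7% of all genes were called. It was 13 without MEL non-induced replicate 1, where 13.4% were, and 16 without MEL non-induced replicate 2, where 12.5% were.

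**Figure D5:**
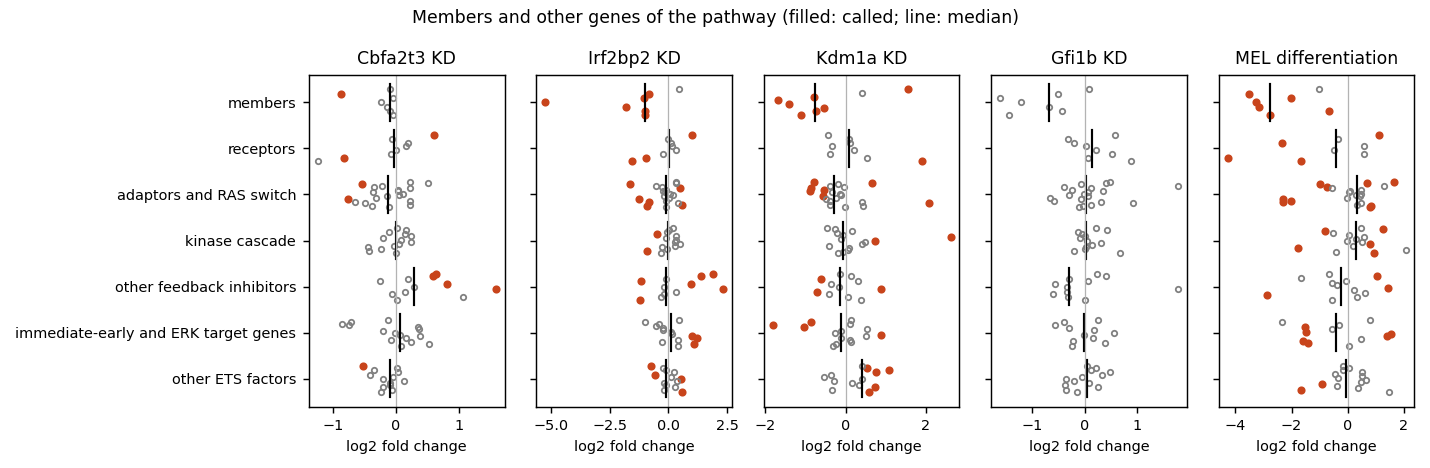
Log2 fold change of the members and of the genes of 6 pathway lists in the 5 comparisons (filled, called or, in *Kdm1a* KD, past the limit in both KD libraries, and open, not called), with a line for the median of each list. The members' medians are -0.09, -1.01, -0.76 (with *Dusp4*), -0.67 and -2.77, and the other lists spread on both sides of 0. The median in *Irf2bp2* KD is a description, since the set was chosen there. There and in differentiation the median includes *Etv4*, whose direction was fixed by the filter.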

How the data were processed

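RNA-Seq of MEL cells was analysed from 5 deposited tables and ChIP-Seq from 1 deposited site list. Per the methods, the authors mapped reads with TopHat2 to mm9, counted them per RefSeq gene and deposited raw counts and RPKM per library. The tables also hold the authors' fold changes and p-values per gene, which were not used. The deposited site list gives the authors' fold enrichment (ratio of ChIP to IgG) and an adjusted p-value, and its class code was read from the class sizes in the methods. Another 4 columns of the site list were not used, and the ChIP of GFI1B and LSD1 was not analysed here.

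Members, lists, comparisons and tests were chosen with earlier results of these data known. Counts were tested per table in R 4.3.3 with edgeR 4.0.16 (TMM, filterByExpr, glmQLFit and glmQLFTest, Benjamini-Hochberg over all genes tested), and SE is the log2 fold change divided by the root of F. DESeq2 1.42.0, other filters and size factors, a replicate block, no fold limit, each hairpin alone and leaving out each library were alternatives. Genes were named by a rule: all members, and from each pathway list up to 3 called genes with the largest change whose groups do not overlap. A count of 3 was taken as the floor, between 0.0520 and 0.302 CPM. Tested on simulated data, in which 200 genes were given a log2 change of 1, the fit recovered 172 (*Cbfa2t3*), 187 (*Irf2bp2*), 4 (*Gfi1b*) and 53 (differentiation). Sites were assigned in Python 3.11.15 to the nearest protein-coding GENCODE start on mm9. All replicate pairs differed beyond sampling noise.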

Additional observations from a re-analysis of the deposited data

Results flagged for a closer look

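*Egr1*, *Spry4* and *Etv4* differed between the hairpins against *Cbfa2t3*, by the test of the difference itself (sh3 minus sh2, log2 of -0.95, -0.84 and -0.98). No group held the 4 libraries that a check for a single outlying library needs. The library labelled Gfi1b KD replicate 1 held more *Gfi1b* RNA than its controls, and its members' values are given in the results with and without it.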

How the results depend on the processing

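The size factors of DESeq2 and the filter at 10 counts moved no count of called members by over 1.5 times. With the filter at 10 counts in every library, *Etv4* and *Spry4* were not tested in MEL differentiation. *Etv4* was not tested in *Irf2bp2* KD either. With no fold limit, 17 pathway genes were called in *Cbfa2t3* KD and 43 passed the adjusted p in *Irf2bp2* KD, which is a description. With sh3 alone 4 members and 17 pathway genes were called in *Cbfa2t3* KD, where 9.19% of all genes were. In *Gfi1b* KD, DESeq2 called 1 member (*Egr1*) among 49 genes. With no filter edgeR called 2 members (*Egr1* and *Spry4*) and 1 pathway gene, where 2.41% of all genes were called. Among sites at or above the median enrichment, 4 members had one, and within 100 kb 7 did. Leaving out 1 library gave 0 to 1 members and 4 to 11 pathway genes in *Cbfa2t3* KD, 0 to 5 and 0 to 26 in *Gfi1b* KD, and 3 to 6 and 13 to 27 in MEL differentiation. *Gfi1b* itself, 0.13 on the log2 scale over both libraries labelled KD, was -0.81 without replicate 1 and 0.67 without replicate 2. Deviations of same-numbered libraries correlated by 0.12 to 0.25 in the *Cbfa2t3* table, 0.03 in that of *Irf2bp2*, 0.00 in that of *Gfi1b* and 0.20 in that of MEL differentiation, with 2 numbers a group, so the numbers were not taken to pair the libraries. With the replicate block the called members were 1 in *Cbfa2t3* KD, 3 between hairpins, 0 in *Gfi1b* KD and 6 in MEL differentiation, as without it. Between hairpins *Dusp6* (log2 -0.38, adjusted p = 0.0418) and *Etv5* (-0.21, 0.0274) then passed the adjusted p of edgeR, but not the fold limit. No paired analysis was possible for *Kdm1a* KD because it has 1 control. Depth limits *Dusp4*, with at most 12 counts in a library, *Spry2*, with at most 2, and *Etv4*, which held 4 counts or fewer in 4 of 21 libraries.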
